A study of Arabidopsis thaliana with 18 samples.

Results

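Jasmonate biology was followed through 4 genes of Arabidopsis thaliana: OPCL1 in synthesis, JMT in methylation, and THI2.1 and ORA47 in the response. The members are the probe sets (groups of array probes for 1 transcript) whose annotation names exactly 1 of these genes. There were 4, 1 for each gene, among 22810 probe sets on the array, and all 4 passed the filter on low values that 21869 probe sets passed. Their loci are AT1G20510 for OPCL1, AT1G19640 for JMT, AT1G72260 for THI2.1 and AT1G74930 for ORA47.

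The series held 18 single-colour Affymetrix arrays, 1 for each plant sample, in 6 groups of 3 independent replicates. Plants were either the wild type, Col-0, or tga2-5-6, a mutant in the TGA factors TGA2, TGA5 and TGA6, and were treated for 4 h. The solvent control was 0.5% methanol in water. Phytoprostane A1, here PPA1, was given at 75 µM, and so was the jasmonate precursor 12-oxo-phytodienoic acid, here OPDA. The labels name neither the organ nor the age of the plants, and the study asks which genes respond to PPA1 and OPDA through TGA factors. TGA2, TGA5 and TGA6 had 0 named probe sets each, so their transcripts gave no check of the genotypes, and the mutant is 1 line.

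As background, jasmonic acid is made from the fatty acid α-linolenic acid. Plastid enzymes convert it to OPDA, which is reduced in peroxisomes, activated as a coenzyme A thioester by OPCL1, and shortened by β-oxidation to jasmonic acid. JMT, a carboxyl methyltransferase, turns jasmonic acid into the volatile methyl jasmonate. THI2.1 encodes a thionin, a small antimicrobial peptide whose gene is a classic marker of the jasmonate response. ORA47 is a transcription factor of the AP2/ERF family that activates jasmonate synthesis genes. PPA1 also derives from α-linolenic acid, by oxidation that needs no enzyme. Both share a cyclopentenone ring, and among their differences PPA1 carries a hydroxyl on a side chain.

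Median intensities were 159 to 185 per array, and log2 values correlated at 0.905 to 0.937 within groups and 0.877 to 0.930 between groups. The 3'/5' signal ratio of the actin control probes, a sign of RNA quality, was 48.3 ± 16.8 (SD, n = 3) in control tga2-5-6 and 28.1 to 34.4 in the means of the other groups. For the GAPDH control probes the same ratio was far lower, with group means from 0.953 ± 0.072 (tga2-5-6 PPA1) to 1.55 ± 0.47 (tga2-5-6 control). The part of either ratio in the results was not tested. Of 6 photosynthesis and 6 flower marker genes 0 had a probe set that the annotation names for 1 gene. The tissue could thus not be checked through them, and whether they were expressed is not shown. Of 6 root marker genes 2 had such a probe set and were measured. EXPA7, a root-hair expansin, stood at 303 ± 143 in control, 60.5 ± 38.9 with PPA1 and 86.6 ± 34.5 with OPDA in Col-0, and at 242 ± 51.8, 89.8 ± 24.8 and 115 ± 23.6 in tga2-5-6. EXPA7 fell with PPA1 in Col-0 (a log2 difference of -2.57 ± 0.55, limma adjusted p = 0.0183, but 0.0927 without Col-0 control replicate 1). LBD16, a lateral-root regulator that passed in no comparison with control, stood at 116 ± 54.2, 55.1 ± 8.10 and 108 ± 46.8 in Col-0, and at 129 ± 23.9, 60.8 ± 11.7 and 91.9 ± 19.6 in tga2-5-6. The part of these root signals in the members' results was not tested, and in bulk samples fewer cells of a type and less RNA per cell cannot be told apart.

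OPCL1, JMT and THI2.1 stood high with OPDA in both genotypes and low in the other 4 groups, whereas the ORA47 levels overlapped between treatments except for PPA1 and control in tga2-5-6. Values are array intensities on a linear scale, given by replicate in the order 1, 2, 3, and probe sets are not compared with one another. A probe set passed a comparison with a limma adjusted p under 0.05 (Benjamini-Hochberg over the 21869 probe sets) and a change of at least 2-fold. Values below 1 were set to 1 before log2. The PPA1 and OPDA comparisons with control share their 3 control arrays in each genotype, so their values are given side by side.

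**Figure D1:**
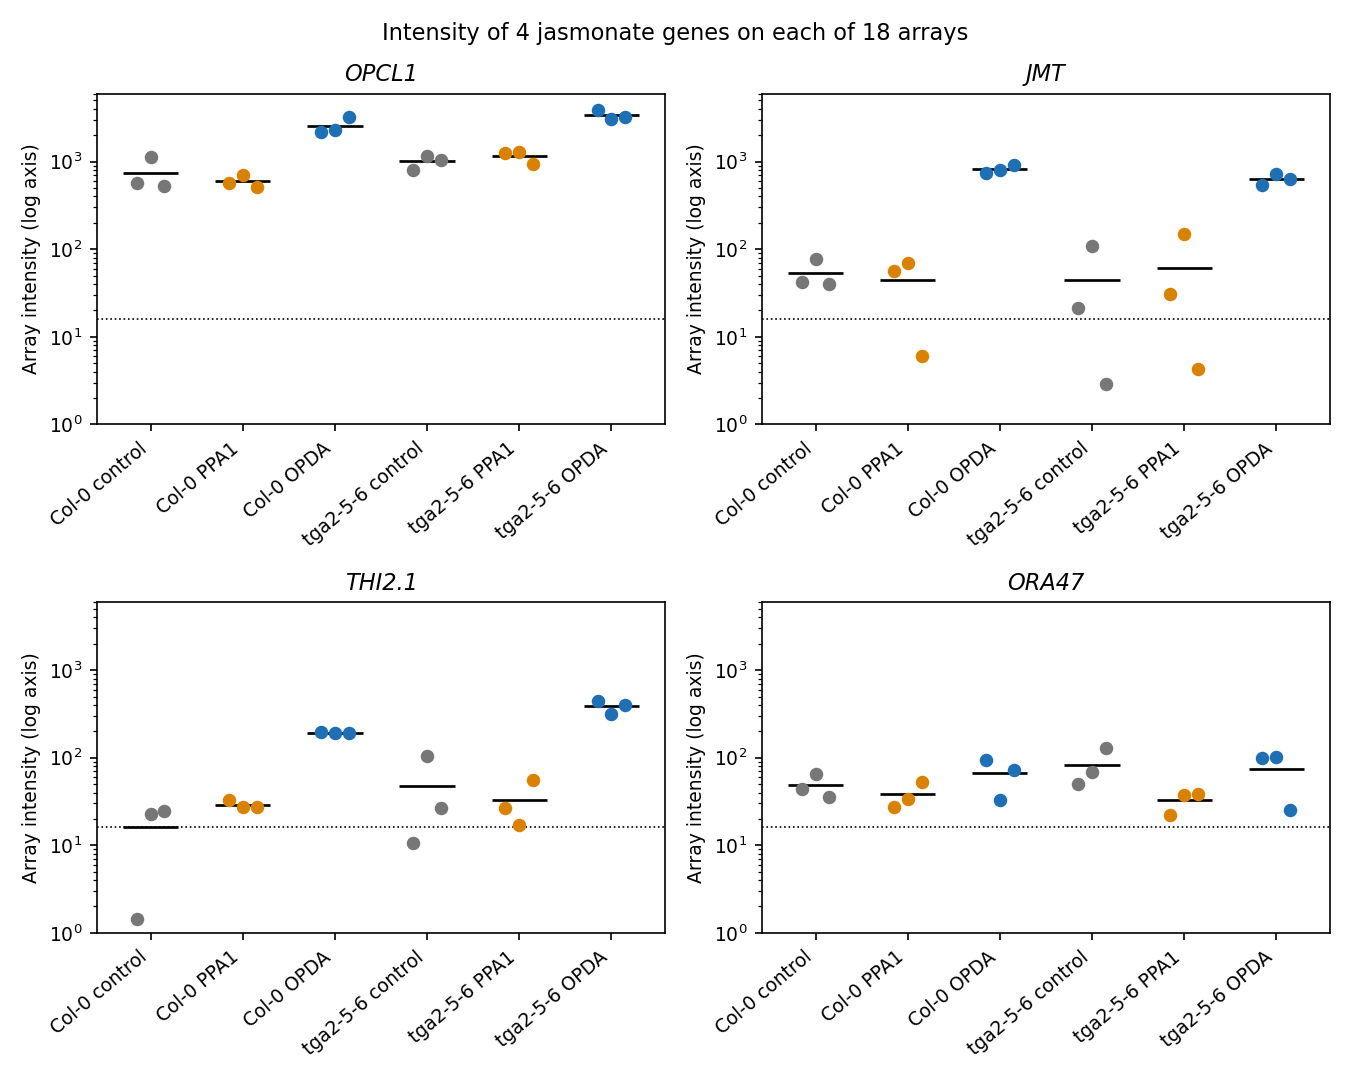
Intensity (log axis, arbitrary units) of the 4 genes on each of the 18 arrays, with points for arrays (replicates 1 to 3 from left to right), bars for group means over 3 arrays and a dotted line at 16, the value of the filter. For OPCL1, JMT and THI2.1 the OPDA arrays of each genotype lie above all its control and PPA1 arrays, and for ORA47 the treatments overlap within each genotype, except that the PPA1 arrays of tga2-5-6 lie below its controls.

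OPCL1, the coenzyme A ligase of the peroxisomal steps, was well above the filter value of 16 on every array, from 515 to 3850.4. In Col-0 it measured 573, 1132 and 529 in control, 577, 695 and 515 with PPA1, and 2178, 2269.8 and 3209 with OPDA. In tga2-5-6 it measured 807, 1169 and 1049 in control, 1259, 1298 and 947 with PPA1, and 3850.4, 3049 and 3218 with OPDA. All 6 OPDA arrays thus lay above the 12 others. From the highest, the group means were 3372 ± 422 in tga2-5-6 and 2552 ± 571 in Col-0 with OPDA, 1168 ± 192 and 1008 ± 185 in tga2-5-6 with PPA1 and in control, and 745 ± 336 and 596 ± 91.1 in Col-0 control and with PPA1. The ranges of the top pair overlapped, and the lower 4 means differed from their neighbours by less than the larger SD.

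JMT measured 42.2, 76.3 and 40.3 in Col-0 control, 56.8, 69.4 and 6.10 with PPA1, and 743, 803 and 924 with OPDA. In tga2-5-6 it measured 21.2, 109.7 and 2.85 in control, 30.4, 148 and 4.28 with PPA1, and 537, 729 and 636 with OPDA. Each OPDA array exceeded each array of the other treatments. The mean with OPDA was 823 ± 92.3 in Col-0 and 634 ± 96.2 in tga2-5-6, and the other 4 means ran from 44.1 ± 33.5 (Col-0 PPA1) to 61.0 ± 76.8 (tga2-5-6 PPA1) and differed by less than their spread. Relative to the mean, the SD was 11.2% and 15.2% with OPDA and 128% in control tga2-5-6. Its residual SD on the log2 scale, 1.72, was larger than that of 96.1% of the probe sets tested, and 3 of its 18 values lay below 16.

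THI2.1 measured 1.43, 22.9 and 24.3 in Col-0 control, 32.8, 27.0 and 27.7 with PPA1, and 194, 193 and 192 with OPDA. In tga2-5-6 it measured 10.6, 105 and 26.5 in control, 26.4, 16.9 and 55.3 with PPA1, and 448, 312 and 403 with OPDA. The OPDA arrays again lay above all others, and the 3 of Col-0 had an SD of 1.40 around a mean of 193. The means, from the highest, were 388 ± 69.6 in tga2-5-6 and 193 ± 1.40 in Col-0 with OPDA, 47.4 ± 50.6 in tga2-5-6 control, 32.8 ± 20.0 and 29.2 ± 3.19 with PPA1 in tga2-5-6 and Col-0, and 16.2 ± 12.8 in Col-0 control. The OPDA groups did not overlap each other; neither did Col-0 with PPA1 and Col-0 control at the bottom of the order. The 3 middle neighbours overlapped, and 2 values of THI2.1 lay below 16.

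ORA47, the transcription factor, measured 44.3, 66.0 and 35.9 in Col-0 control, 27.4, 33.7 and 53.5 with PPA1, and 94.6, 33.3 and 72.8 with OPDA. In tga2-5-6 it measured 50.2, 69.2 and 128 in control, 21.9, 37.8 and 38.8 with PPA1, and 98.2, 101 and 25.3 with OPDA. With OPDA 1 of 3 arrays in each genotype was low while the other 2 were high. Means ran from 82.5 ± 40.6 in tga2-5-6 control through 74.9 ± 43.0, 66.9 ± 31.1, 48.7 ± 15.5 and 38.2 ± 13.6 (tga2-5-6 OPDA, Col-0 OPDA, Col-0 control, Col-0 PPA1) to 32.8 ± 9.49 in tga2-5-6 with PPA1, and no neighbours in this order differed by more than the larger SD. Its values, 21.9 to 128, lay below the median intensity of every array.

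OPDA against solvent in Col-0 raised OPCL1 and THI2.1, the synthesis gene and the thionin. OPCL1 rose by 1.84 ± 0.27 (log2 difference ± SE of the model; 3.59-fold, limma adjusted p = 8.1e-04). THI2.1 rose by 4.38 ± 0.95 (adjusted p = 0.0110). JMT had a ratio of means of 823 over 52.9 and a log2 difference of 4.02 ± 1.32 (95% interval 1.17 to 6.86), with all 3 OPDA arrays above all 3 controls, but did not pass (adjusted p = 0.0824). ORA47 had a difference of 0.38 ± 0.56 (adjusted p = 0.767). So 2 of 4 members rose, where 2.85% of all probe sets rose, and 3 of 4 lay wholly above the controls, where 9.94% of all did. The median of the members was 2.93, and that of all probe sets -0.12.

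These calls depend on settings. With a floor of 16 in place of 1, JMT passed (4.02 ± 0.78, adjusted p = 0.0038), and the size for THI2.1 fell to 3.22 ± 0.52, with 1 control value of 1.43 raised to 16. Fitted on its own 6 arrays only, JMT passed (adjusted p = 0.00674), while OPCL1 (0.0592) and THI2.1 (0.119) did not.

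In tga2-5-6 the same treatment raised OPCL1, JMT and THI2.1. OPCL1 rose by 1.75 ± 0.27 (3.37-fold, limma adjusted p = 9.7e-04), JMT by 5.06 ± 1.32 (adjusted p = 0.0240) and THI2.1 by 3.63 ± 0.95 (adjusted p = 0.0243). ORA47 had a difference of -0.28 ± 0.56 (adjusted p = 0.813). Of 4 members 3 rose, where 3.4% of all probe sets did, and 3 lay wholly above the controls, where 10.1% of all did. The members' median was 2.69, and that of all probe sets -0.17.

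The OPCL1 call held without any 1 of the 6 arrays. JMT passed only without control replicate 2 (adjusted p = 0.00792) and had an adjusted p of 0.0596 to 0.0984 without any other 1 array. For THI2.1 the adjusted p was 0.0689 to 0.105 without control replicate 1 or 3 or OPDA replicate 1 or 3, so that 1 of the 4 members rose without any 1 of these 4 arrays. In the fit to these 6 arrays alone neither JMT (0.102) nor THI2.1 (0.0827) passed, and with a floor of 16 the JMT difference was 4.24 ± 0.78.

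PPA1 at the same dose and time moved none of the 4 genes past the threshold. In Col-0 the log2 differences from control were -0.24 ± 0.27 for OPCL1, -0.81 ± 1.32 for JMT, 1.65 ± 0.95 for THI2.1 and -0.36 ± 0.56 for ORA47. These limma tests gave 0 of 4 calls, where 2.5% of all probe sets passed, and 0 unadjusted p-values under 0.05, where 15.5% of all had one. The 3 THI2.1 values with PPA1 lay above the 3 controls, as 9.66% of all probe sets did, but the difference had an adjusted p of 0.447 and was 0.30 without Col-0 control replicate 1. For OPCL1 the 95% interval, -0.83 to 0.34, lay below the rise of 1.84 seen with OPDA. For JMT it was wide, -3.66 to 2.04.

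In tga2-5-6 the differences with PPA1 were 0.22 ± 0.27 for OPCL1, 0.51 ± 1.32 for JMT, -0.09 ± 0.95 for THI2.1 and -1.26 ± 0.56 for ORA47. Again 0 of 4 passed, where 2.71% of all probe sets did, and 1 of 4 had an unadjusted p under 0.05, where 19.8% of all did. That 1 was ORA47 (unadjusted p = 0.0398, adjusted p = 0.224), whose 3 PPA1 values lay below its 3 controls, as 16.2% of all probe sets did. The median of all probe sets was -0.13 in this comparison.

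**Figure D2:**
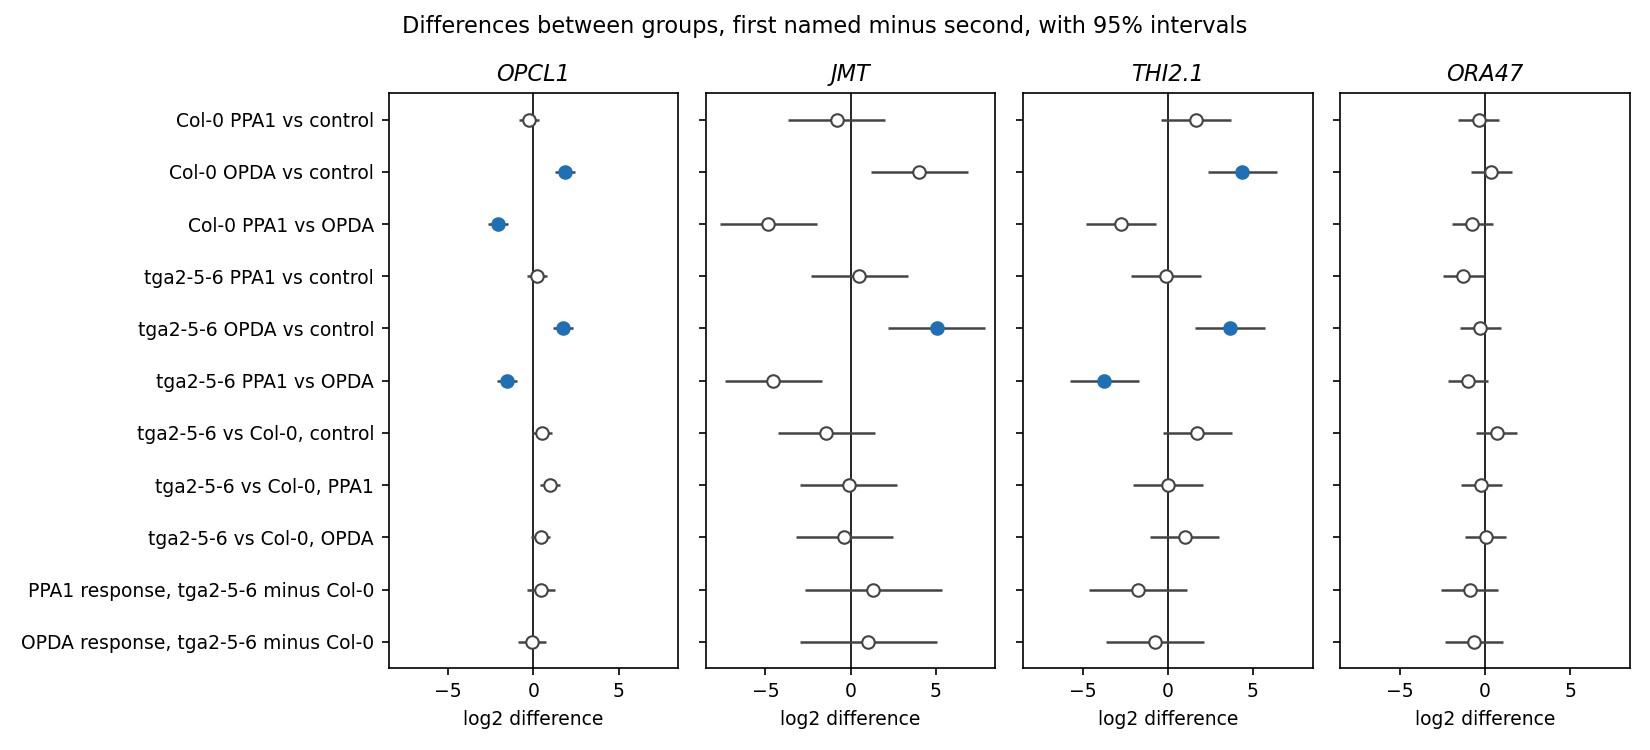
Log2 differences (points) with 95% intervals of the model, not adjusted for the number of probe sets, for each gene in the 11 comparisons, with the first named group minus the second. Filled points passed the threshold; OPCL1 passed in both OPDA comparisons with control and both comparisons of the compounds, and ORA47 in none of the 11.

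Setting the compounds directly against each other gave 4 differences in each genotype, tested with all 21869 probe sets. OPCL1 was lower with PPA1 than with OPDA, with a log2 difference of -2.09 ± 0.27 in Col-0 (limma adjusted p = 3.6e-04) and -1.54 ± 0.27 in tga2-5-6 (adjusted p = 0.00386). THI2.1 was lower with PPA1 in tga2-5-6 (-3.72 ± 0.95, adjusted p = 0.0350) and did not pass in Col-0 (-2.73 ± 0.95, adjusted p = 0.136). JMT had the widest gaps, -4.83 ± 1.32 in Col-0 (95% interval -7.67 to -1.98, adjusted p = 0.0519) and -4.55 ± 1.32 in tga2-5-6 (-7.40 to -1.70, adjusted p = 0.0649), and passed in neither. ORA47 differed by -0.74 (-1.93 to 0.46) and -0.99 (-2.18 to 0.21), intervals that leave both no difference and one of over 3-fold.

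Thus 1 of 4 members was lower with PPA1 in Col-0, where 2.18% of all probe sets were, and 2 of 4 in tga2-5-6, where 2.31% were. The arrays of the compounds did not overlap for 3 of 4 members in each genotype, where 8.5% and 10.3% of all probe sets were wholly lower. With a floor of 16, 3 of 4 members passed in Col-0, with JMT at -4.36 ± 0.78 (adjusted p = 0.00276) and THI2.1 at -2.73 ± 0.52 (adjusted p = 0.0046), and JMT passed in tga2-5-6 (-3.92 ± 0.78, adjusted p = 0.00594). The THI2.1 call in tga2-5-6 was lost without any 1 of its 6 arrays (adjusted p = 0.0546 to 0.116), while JMT passed there without PPA1 replicate 2 (adjusted p = 0.0257).

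The genotypes were compared within each treatment. In control plants the mutant differed from Col-0 by 0.51 ± 0.27 for OPCL1, -1.43 ± 1.32 for JMT, 1.74 ± 0.95 for THI2.1 and 0.69 ± 0.56 for ORA47. Of the 4, 0 passed limma's test, where 0.535% of all probe sets did, and 0 had an unadjusted p under 0.05, where 12.1% of all did. With PPA1, OPCL1 was wholly higher in the mutant, at 947 to 1298 against 515 to 695, a ratio of means of 1168 over 596. Its difference of 0.97 ± 0.27 did not pass (unadjusted p = 0.00318, adjusted p = 0.10), and 8.78% of all probe sets were wholly higher. With limma's trend and robust moderation the adjusted p for OPCL1 was 0.0238, and the change, 1.96-fold, still fell short of 2-fold. The differences of the other 3 members with PPA1 were -0.11 for JMT, 4.2e-04 for THI2.1 and -0.21 for ORA47, so 0 of 4 passed, where 1.57% of all probe sets did.

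With OPDA the genotypes parted in opposite directions for JMT and THI2.1, without passing. THI2.1 measured 312 to 448 in tga2-5-6 and 192 to 194 in Col-0 (0.99 ± 0.95, adjusted p = 0.760). JMT measured 537 to 729 in tga2-5-6 and 743 to 924 in Col-0 (-0.38 ± 1.32, adjusted p = 0.952). The SE of each gene rests on its spread pooled over all 6 groups, not on the OPDA arrays alone. For THI2.1 the log2 SD was 0.27 (tga2-5-6) and 0.011 (Col-0) with OPDA, but 1.67 and 2.34 in control. For JMT it was 0.22 and 0.16 with OPDA, and 2.64 and 0.51 in control. The groups did not overlap for either gene; 9.41% of all probe sets were wholly higher in the mutant and 7.82% wholly lower. OPCL1 differed by 0.42 ± 0.27 and ORA47 by 0.04 ± 0.56, and 0 of 4 members passed, where 0.787% of all probe sets did, with 0 unadjusted p-values under 0.05, where 11.5% of all had one.

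Whether the responses themselves differed between the genotypes was tested as the change in tga2-5-6 minus that in Col-0. For OPDA this was -0.09 (95% interval -0.91 to 0.73) for OPCL1, 1.05 (-2.98 to 5.07) for JMT, -0.75 (-3.64 to 2.14) for THI2.1 and -0.65 (-2.34 to 1.04) for ORA47. For PPA1 it was 0.46 (-0.36 to 1.28), 1.32 (-2.70 to 5.35), -1.74 (-4.63 to 1.16) and -0.90 (-2.59 to 0.79) in the same order. Of the members 0 passed in either, with 0 unadjusted p-values under 0.05. Over all probe sets limma called 0.00915% (2) for PPA1 and 0 for OPDA, and 7.39% and 6.49% of all had an unadjusted p under 0.05. For OPCL1 the interval leaves a genotype difference in the OPDA response of under 2-fold either way; for JMT and THI2.1 it leaves differences of many fold.

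Other genes of the pathway came from 4 lists of 76 genes for jasmonate synthesis, conversion, signalling and response. Only 12 had a probe set that the annotation names for 1 gene, so the annotation limits this view of the pathway. The 12 measured were the 4 members and 8 others. These 8 were AIM1 (β-oxidation), JOX1, JOX2, JOX3 and JOX4 (oxidases that inactivate jasmonic acid by hydroxylation), MYC3 and MYC4 (transcription factors that carry the jasmonate signal) and PDF1.2A (a defensin). With OPDA 3 of 8 rose in each genotype, where 2.85% of all probe sets rose in Col-0 and 3.4% in tga2-5-6, and 0 fell. The lists were chosen with earlier results of these data known, so these shares are no test of them. With PPA1 limma called 0 of 8 in either, and 2 and 1 of 8 had an unadjusted p under 0.05 in Col-0 and tga2-5-6, where 15.5% and 19.8% of all did. Those that rose were JOX2, by 4.50 ± 0.37 in Col-0 (limma adjusted p = 3.2e-05) and 3.78 ± 0.37 in tga2-5-6 (adjusted p = 6.5e-05), JOX4, by 6.65 ± 0.72 and 5.89 ± 0.72, and JOX3. JOX3 read 14.5 ± 13.7 in Col-0 control and 4119.7 ± 789 with OPDA; with such low control values the size of its change is not determined, at 9.10 on the log2 scale with a floor of 1 and 7.72 with a floor of 16 (adjusted p = 0.00363 and 3.0e-05). JOX2 itself measured 357 ± 60.6 in Col-0 control, 638 ± 95.4 with PPA1 and 8035 ± 956 with OPDA. Its difference with PPA1 was 0.84 ± 0.37 in Col-0 (limma adjusted p = 0.295) and 1.05 ± 0.37 in tga2-5-6 (adjusted p = 0.133). MYC4 went the other way with PPA1, by -0.65 ± 0.22 (adjusted p = 0.138) and -0.45 ± 0.22 (adjusted p = 0.265). The median of the 8 with OPDA was 1.54 in Col-0 and 2.02 in tga2-5-6.

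The other 5 pathway genes did not pass with OPDA. AIM1, an enzyme of the β-oxidation that follows the OPCL1 step, measured 2085 ± 58.4 in Col-0 control and 2046 ± 112 with OPDA, a difference of -0.03 ± 0.13. MYC3 differed by 0.13 ± 0.26 and MYC4 by -0.05 ± 0.22 in Col-0. PDF1.2A ran from 167 to 2020.3 in Col-0 control and from 1185 to 5398 with OPDA (2.13 ± 1.61, adjusted p = 0.505). JOX1 ranged from 5.65 to 44.9 over the Col-0 control and OPDA arrays (0.95 ± 0.86). In tga2-5-6 the differences with OPDA were -0.08 ± 0.13 for AIM1, 0.57 ± 0.26 for MYC3 and 0.43 ± 0.22 for MYC4. They were 2.91 ± 1.61 for PDF1.2A and 1.13 ± 0.86 for JOX1. The MYC4 values with OPDA lay wholly above the controls there, as 10.1% of all probe sets did.

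**Figure D3:**
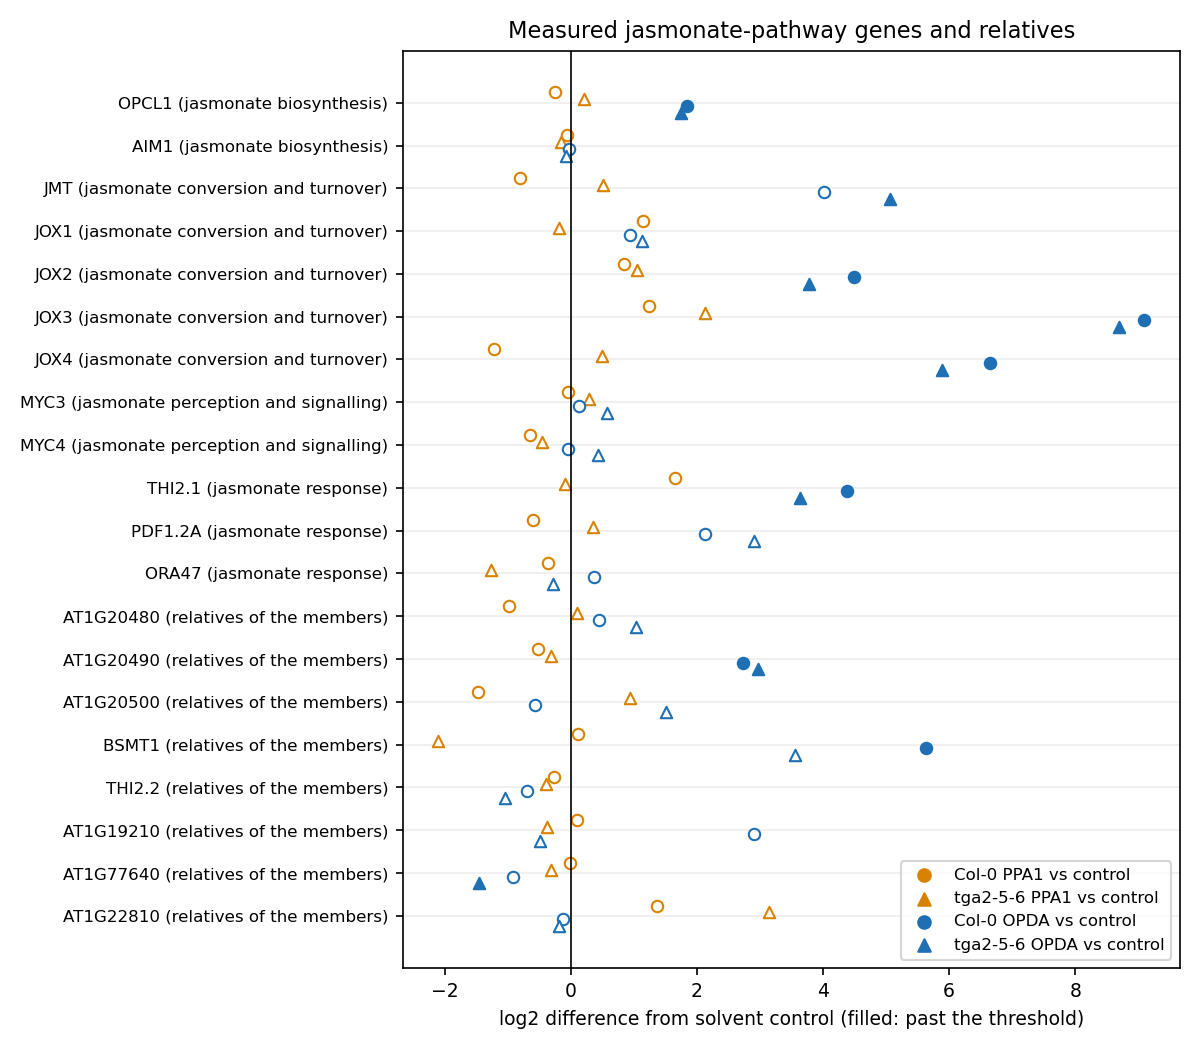
Log2 difference from the solvent control for the 12 measured genes of the jasmonate lists and 8 relatives of the members, with circles for Col-0, triangles for tga2-5-6, orange for PPA1 and blue for OPDA. Filled symbols passed the threshold: with OPDA, OPCL1, THI2.1, 3 JOX genes and AT1G20490 in both genotypes, JMT in tga2-5-6 and BSMT1 in Col-0 lie to the right, AT1G77640 in tga2-5-6 lies to the left, and no orange symbol is filled.

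Relatives of the members were listed as well, 17 genes of which 8 had a named probe set and were measured. OPCL1 directly follows AT1G20480, AT1G20490 and AT1G20500 in the order of genes of the TAIR10.1 annotation, and these 3 were listed as its relatives. AT1G20490 moved with it: 60.7 ± 6.62 in Col-0 control, 42.6 ± 8.40 with PPA1 and 401 ± 30.6 with OPDA, and 79.8 ± 24.6, 68.2 ± 29.9 and 618 ± 127 in tga2-5-6. It rose with OPDA by 2.73 ± 0.32 in Col-0 (limma adjusted p = 1.9e-04) and 2.97 ± 0.32 in tga2-5-6 (adjusted p = 1.3e-04), and was lower with PPA1 than with OPDA by -3.25 ± 0.32 and -3.28 ± 0.32. Those 4 calls held without any 1 array. AT1G20480 and AT1G20500 stayed at 20.9 to 44.6 and 3.88 to 21.0 in their group means and passed in neither OPDA comparison. Whether the probes of these neighbours share sequence was not tested.

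BSMT1, a methyltransferase of the same family as JMT that acts on salicylic and benzoic acid, read 11.7 ± 9.79 in Col-0 control and 475 ± 141 with OPDA (limma adjusted p = 0.00837). The size of this rise is likewise not determined, at 5.63 with a floor of 1 and 4.68 with a floor of 16. In tga2-5-6 it stood at 65.4 ± 79.6 in control and 481 ± 250 with OPDA (3.55 ± 1.17, adjusted p = 0.0665). THI2.2, the second thionin of the THI2.1 type, had group means of 55.7 to 103 and passed in none of the 4 comparisons with control. Of 3 genes listed as relatives of ORA47, AT1G77640 fell with OPDA in tga2-5-6 (-1.45 ± 0.33, adjusted p = 0.0117, but 0.0546 without tga2-5-6 control replicate 1), and AT1G19210 and AT1G22810 passed in none of the 4. In all, 2 of 8 relatives rose with OPDA in Col-0, where 2.85% of all probe sets did. In tga2-5-6 1 rose and 1 fell, where 3.4% of all probe sets rose and 670 of 21869 fell. With PPA1 0 of 8 passed in either genotype, where 2.5% of all did in Col-0 and 2.71% in tga2-5-6. The median of the 8 relatives with OPDA was 0.16 in Col-0 and 0.43 in tga2-5-6.

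The genes with the pattern most like each member were ranked by Pearson's r of log2 intensity over the 18 arrays, among 12781 other probe sets with 1 gene. The arrays fall into 6 groups, so r holds differences between groups as well as within them, and the r of the deviations from group means is given beside it. Nearest to OPCL1 were AT3G51450 (r = 0.971, deviations 0.630), AT5G02940 (0.968 and 0.765) and the methionine sulfoxide reductase MSRB9 (0.965 and 0.513). JMT was followed most closely by AT1G31710 (0.925 and 0.749), AT3G60490 (0.912 and 0.666) and AT2G34810 (0.908 and 0.805). For THI2.1 they were UF3GT, a glycosyltransferase of anthocyanin synthesis (0.891 and 0.824), AT1G11440 (0.878 and 0.641) and AT1G70810 (0.875 and 0.625). ORA47 had weaker matches, AT3G25750 (0.797 and 0.741), AT2G27680 (0.765 and 0.738) and AT2G28090 (0.743 and 0.642). With a floor of 16 the r of AT3G25750 with ORA47 fell to 0.606 and that of AT2G28090 to 0.369. These genes read low, with group means of 1.78 to 18.6 for AT3G25750 and 2.91 to 28.5 for AT2G28090. The group means of AT2G27680 differed little, at 2272 to 2539.

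**Figure D4:**
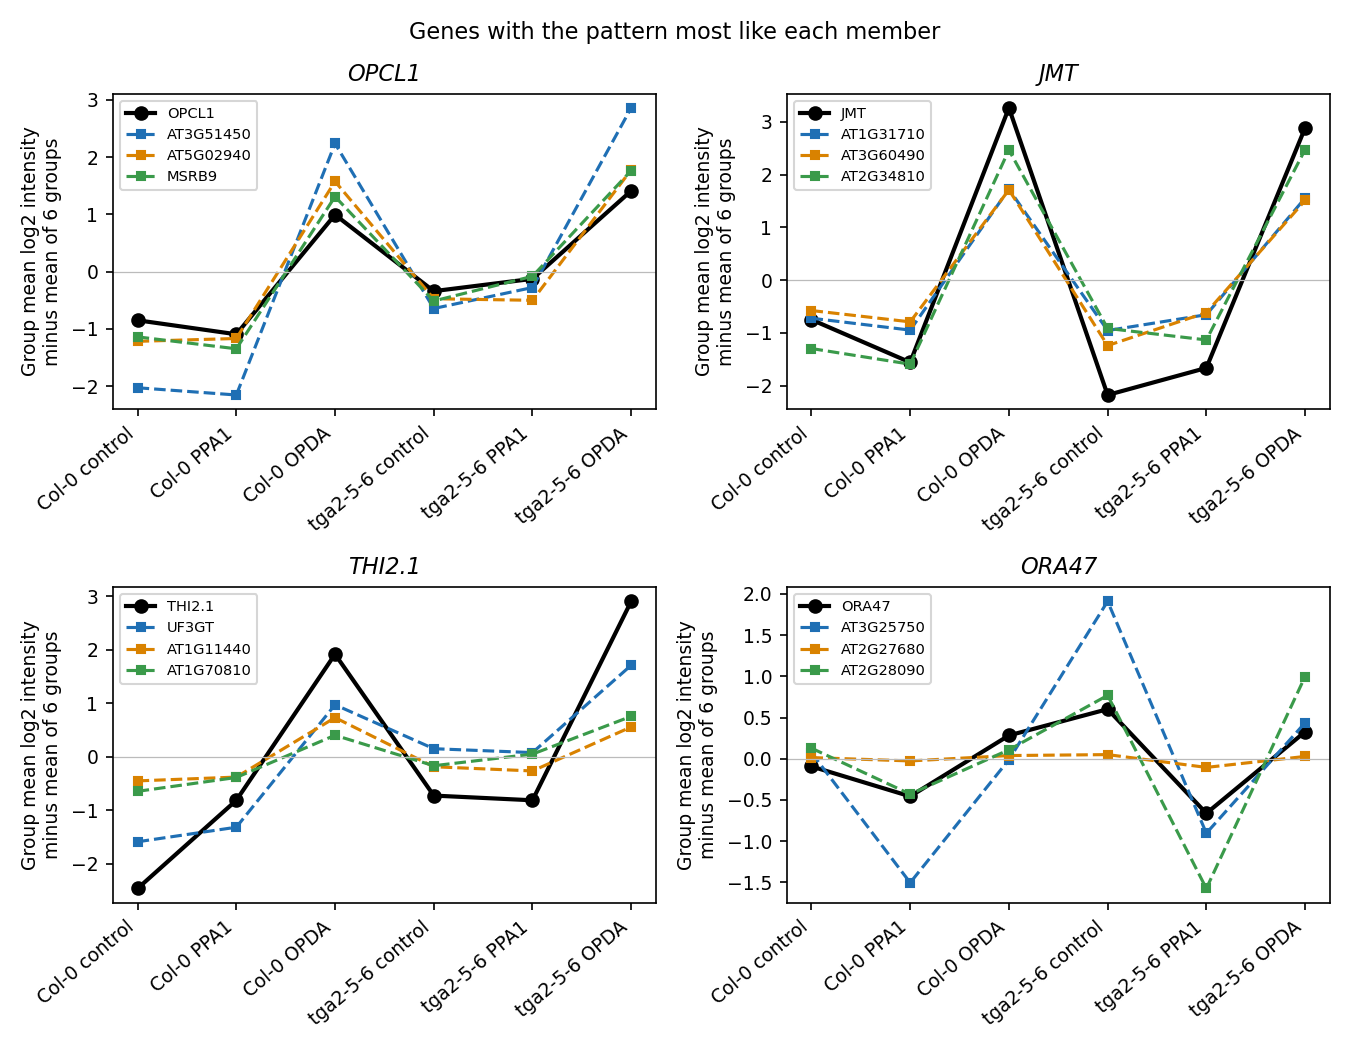
Group means of log2 intensity over 3 arrays, each minus the mean of the 6 groups, for each member (black) and the 3 genes most like it (dashed). The curves of OPCL1, JMT and THI2.1 and of their 9 nearest genes peak in the OPDA groups of both genotypes, whereas ORA47 itself has its lowest group mean with PPA1 in tga2-5-6.

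Among themselves, OPCL1 correlated over the 18 arrays with JMT at 0.769 and with THI2.1 at 0.826, and JMT with THI2.1 at 0.646. The deviations from group means gave 0.416, 0.328 and 0.0598 for these pairs. ORA47 had correlations of 0.340, 0.0917 and 0.265 with OPCL1, JMT and THI2.1.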

How the data were processed

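The deposited table gives 1 linear intensity for each probe set on each array. The authors had scaled each array: the mean without the lowest and highest values was 500 on all. Per the submitters' processing notes GCRMA was used, but its output is log2 and quantile-normalized, which these values are not, so the algorithm is not given in the sources used here.

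A floor of 1 came before log2. Without the 64 array controls, 21869 probe sets reached 16 on 3 or more arrays and were tested. Two-sided tests used limma 3.58.1 (R 4.3.3) with 6 group means over the 18 arrays, 12 residual and 1.5 prior degrees of freedom. The fit was tested on simulated data, with normal noise of the same spread in every group for a given probe set. That test does not cover genes whose spread differs between groups, as for JMT and THI2.1. Gene names come from the platform annotation (13513 probe sets with 1 gene, 503 with several, 8730 with none), matched to TAIR10.1 by gene identifier.

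Named were all members, lists with up to 6 measured genes in full, of longer lists the 2 highest and 2 lowest passing genes, and the 3 genes most correlated with each member. Among relatives of the members, those that did not pass were named after their values were seen. The members and lists were chosen with earlier results of these data known, so the shares of all probe sets beside their counts are no test of them. The labels call replicates independent without naming separate plants or cultures, so p-values measure the spread between these samples, and the number of arrays limits precision. Over all probe sets replicate numbers showed no pairing of the arrays. Of 45 pairs of the same number in different groups 0 had deviations correlated over 0.1 (-0.0539 to 0.0673). Of 90 pairs of different numbers 0 did as well (-0.0804 to 0.0789). These correlations cannot decide whether single genes, such as JMT, were paired. Alternatives were the floor, the filter, the scaling, the moderation, the arrays fitted, a replicate block and leaving out arrays. Promoter and protein sequences were not used here.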

Additional observations from a re-analysis of the deposited data

How the results depend on the processing

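Of 352 values of the members under 8 other settings in 11 comparisons, 324 kept their direction and their side of the threshold, 14 came to pass, 4 no longer passed and 10 changed sign. Without 1 array, 268 of 312 kept both, 15 no longer passed, 1 came to pass and 28 changed sign. No value that passed changed sign, and the cause of the changes was not tested. Fitting only the arrays of a comparison moved the probe sets past the threshold from 546 to 221 (Col-0 PPA1 against control), 781 to 484 (Col-0 PPA1 against OPDA), 592 to 94, 1414 to 718 and 780 to 356 (tga2-5-6 PPA1 against control, OPDA against control, PPA1 against OPDA), and 117 to 6, 344 to 89 and 172 to 11 (genotypes in control, with PPA1 and with OPDA). In that fit 1 member passed in place of 2 for OPDA in Col-0 and 1 in place of 3 for OPDA in tga2-5-6. For PPA1 against OPDA in Col-0 the members past the threshold were 1, but 3 with a floor of 16, 3 with log2(value + 16), and 2 with median centring, in the fit to these arrays alone and with the replicate block. With the replicate block JMT passed in Col-0 with OPDA (adjusted p = 0.0292) and between the compounds in both genotypes (0.015 and 0.021); the block changed no other call of a member. Of the 18 arrays 6 correlated best with their own number. The genotype difference of the PPA1 response had 2 calls, but 26 with a floor of 16, 18 with log2(value + 16), 31 with trend and robust moderation, 1 with the replicate block and 0 after quantile normalization or with these arrays alone; that of OPDA had 0, but 5 with a floor of 16 and 7 with log2(value + 16).

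Signs turned only where the difference was not called: THI2.1 with PPA1 in tga2-5-6 (0.35) and ORA47 with OPDA in tga2-5-6 (0.10) after quantile normalization; between genotypes with PPA1, JMT with a floor of 16 (0.065), log2(value + 16) (0.057) and quantile normalization (0.061), THI2.1 with median centring (-0.0095) and ORA47 after quantile normalization (0.046); ORA47 between genotypes with OPDA with median centring (-0.015); and the genotype difference of the THI2.1 response to OPDA with a floor of 16 (0.22) and log2(value + 16) (0.16). Leaving out arrays, counts of all probe sets ran from 351 to 622 for PPA1 in Col-0 (lowest without Col-0 PPA1 replicate 3), 361 to 630 for PPA1 in tga2-5-6, 43 to 86, 238 to 302 and 113 to 145 for the genotypes in control, with PPA1 and with OPDA, and 0 to 7 and 0 to 3 for the genotype differences; members passing ran from 1 to 3 for OPDA and 1 to 2 for PPA1 against OPDA in tga2-5-6. Uncalled differences whose sign turned ran from -0.45 to 0.10 (OPCL1) and -1.44 to 0.31 (JMT) for PPA1 in Col-0, -0.85 to 1.84 (JMT) and -0.86 to 0.80 (THI2.1) for PPA1 and -0.62 to 0.39 (ORA47) for OPDA in tga2-5-6. Between genotypes they ran from -1.34 to 1.22 (JMT), -0.46 to 0.39 (THI2.1) and -0.42 to 0.067 (ORA47) with PPA1 and -0.40 to 0.70 (ORA47) with OPDA. The genotype difference ran from -0.037 to 2.65 (JMT) for PPA1, and from -0.44 to 0.11 (OPCL1), -0.31 to 2.32 (JMT), -1.52 to 0.60 (THI2.1) and -1.09 to 0.0089 (ORA47) for OPDA. BSMT1 between the compounds did not pass without Col-0 PPA1 replicate 2, tga2-5-6 PPA1 replicate 3 or tga2-5-6 OPDA replicate 1 (adjusted p up to 0.0612). The split of higher and lower calls moved with scaling, from 623 and 460 to 716 and 327 with median centring for OPDA in Col-0, from 744 and 670 to 826 and 474 (848 and 435 after quantile normalization) for OPDA in tga2-5-6, and from 312 and 280 to 386 and 226 (360 and 176) for PPA1 in tga2-5-6. OPCL1 with OPDA in Col-0 was 1.96 with median centring. Intensities near 16, as for JMT and THI2.1 without OPDA, limit the size of a fold change.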

Other observations

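JMT had its highest value on the array numbered 2 and its lowest on the array numbered 3 in each of the 4 groups without OPDA, a pattern singled out after its values were seen. In Col-0 the arrays numbered 2 and 3 read 76.3 and 40.3 in control and 69.4 and 6.10 with PPA1, and in tga2-5-6 109.7 and 2.85 in control and 148 and 4.28 with PPA1. The labels do not say that a number marks a shared batch.

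AT1G19210, listed as a relative of ORA47 and singled out after its values were seen, read 12.9 ± 12.7 (SD, n = 3) in Col-0 control and 58.6 ± 2.34 with OPDA, with no overlap (log2 difference 2.91 ± 0.95, limma adjusted p = 0.078). Of all probe sets 9.94% were wholly higher in that comparison. In tga2-5-6 AT1G19210 read 49.6 ± 4.28 in control and 36.1 ± 10.1 with OPDA, and the genotype difference of the response was -3.40 ± 1.34 (adjusted p = 0.743). AT1G22810, another such gene, read 14.3 ± 15.3 in tga2-5-6 control and 78.1 ± 37.3 with PPA1 (3.15 ± 1.06, limma adjusted p = 0.112), and 14.4 ± 6.49 and 34.8 ± 0.885 in Col-0. The lowest control value was 1.71 for AT1G19210 in Col-0 and 1.80 for AT1G22810 in tga2-5-6. With control values this low, the sizes of these changes are not determined.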
